A study of Rattus norvegicus with 8 samples.

Results

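Leukocytes leave the blood by holding on to the vessel wall, and the genes described here encode both sides of that contact. The 9 listed genes fall in 2 classes, with 5 taken here as endothelial (Sele, Selp, Icam1, Icam2 and Vcam1) and 4 as leukocyte genes (Itgal, Itgb2, Itga4 and Selplg). The members are all non-control array probes whose accession maps to one of these symbols. They covered 8 of the 9 genes with 9 of 30367 probes (8 of 15159 genes with a symbol), because Selplg, the gene of the selectin ligand PSGL-1, had no matched probe and was not analysed here. All 9 probes passed the filter on dim signals, among 21652 probes that did.

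The samples were lung endothelial cells of Sprague-Dawley rats aged 8 to 10 weeks. The 4 treated samples came 5 days after monocrotaline (60 mg/kg, under the skin) and the 4 control samples 5 days after saline. Monocrotaline is a plant alkaloid that injures lung vessels and is used to bring on pulmonary hypertension in rats. The cells were drawn from collagenase-digested whole lung on magnetic beads against CD31, which platelets and some leukocytes also carry, and their RNA was taken off the beads without culture. Each sample was read on its own 1-colour array, and 4 arrays per group limit the precision of every value.

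Adhesion proceeds in steps. Selectins on endothelium (E-selectin, from Sele, and P-selectin, from Selp) catch sugars on rolling leukocytes. Integrins then grip immunoglobulin-type ligands: LFA-1, the pair of Itgal and Itgb2, binds ICAM-1 and ICAM-2, and VLA-4, the pair of Itga4 and Itgb1, binds VCAM-1. In resting endothelium ICAM-2 is made constantly, whereas Sele, Vcam1 and Icam1 are induced by TNF and IL-1 through NF-kB, and P-selectin is stored ready-made in Weibel-Palade bodies and in platelet granules.

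The Icam1 and Vcam1 windows are shown because both genes are known to be induced through NF-kB. The RefSeq promoter table used here (GRCr8) gives 1 window of 300 bases a gene, from 250 before to 50 after a transcript start, and has an entry for 4 of the 9 genes (Sele, Icam1, Vcam1 and Itga4). The transcript start of the Vcam1 window is the gene's own start, and that of Icam1 lies 157 bases inside the gene. For Sele and Itga4 it lies 517 and 528 bases inside, so those windows do not reach the gene's first start and are not shown. Capitals mark matches on either strand to a 10-base NF-kB type motif or to the shorter GGNNNTTCC, which was added after the sequences were seen. The Icam1 window is chr8:27829595-27829894 on the plus strand and the Vcam1 window is chr2:206742734-206743033 on the minus strand.
Icam1: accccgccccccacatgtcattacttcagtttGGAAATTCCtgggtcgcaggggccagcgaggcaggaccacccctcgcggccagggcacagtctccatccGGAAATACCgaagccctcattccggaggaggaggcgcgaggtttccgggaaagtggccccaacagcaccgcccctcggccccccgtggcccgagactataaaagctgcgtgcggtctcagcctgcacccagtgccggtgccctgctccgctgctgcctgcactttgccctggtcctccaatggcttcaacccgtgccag
Vcam1: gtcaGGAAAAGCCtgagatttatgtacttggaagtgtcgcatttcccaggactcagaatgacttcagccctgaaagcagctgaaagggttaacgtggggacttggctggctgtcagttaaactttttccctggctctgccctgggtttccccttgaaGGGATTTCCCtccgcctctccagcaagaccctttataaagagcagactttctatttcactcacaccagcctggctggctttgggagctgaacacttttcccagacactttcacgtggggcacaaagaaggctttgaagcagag

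The 10-base NF-kB type motif occurred once among these windows, as GGGATTTCCC from base -93 to -84 of Vcam1, where base -1 is the last before the transcript start, and it occurred in 5% of 33469 promoter windows of the same length. The 9-base motif GGNNNTTCC, present in 18.3% of those windows, matched GGAAATTCC from base -218 to -210 of Icam1, which reads as a match on both strands, and GGAAATACC from base -149 to -141. In Vcam1 it matched on the minus strand at GGAAAAGCC from base -246 to -238, and it also lies inside the longer match. The windows of Sele and Itga4, which lie inside those genes, held neither sequence. GAGGAAGT, a PU.1-type motif found in 2.42% of windows, was in none of the 4, which says only that these letters are not in them. A match is a string of letters in this window, not a measured binding site. Near variants are not marked, such as gggtttcccc shortly upstream of GGGATTTCCC in Vcam1, which fits neither NF-kB type pattern.

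No adhesion gene passed the test between monocrotaline and saline. Levels are given as scaled log2 signals, the log2 of the scanner's processed signal minus the array's 75th percentile, so 0 is the level that 75 percent of probes lie below. With limma and Benjamini-Hochberg adjustment over 21652 probes, 0 of the 9 member probes were called at an adjusted p under 0.05, and their adjusted p ranged from 0.436 to 0.947. Over all probes 1.42% were called, 1.36% higher and 0.0647% lower, so 0 of 9 is near the background. The log2 fold change was above 0 for 4 of the 9 members and for 46.3% of all probes. At an unadjusted p under 0.05 the members also gave 0, against 6.72% of all probes higher and 7.08% lower. The groups overlapped for all 9 probes, where 4.66% of all probes lay higher on every monocrotaline array and 3.87% lower. The rows of the slide held 1 group each, so slide row and treatment cannot be told apart.

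**Figure D1:**
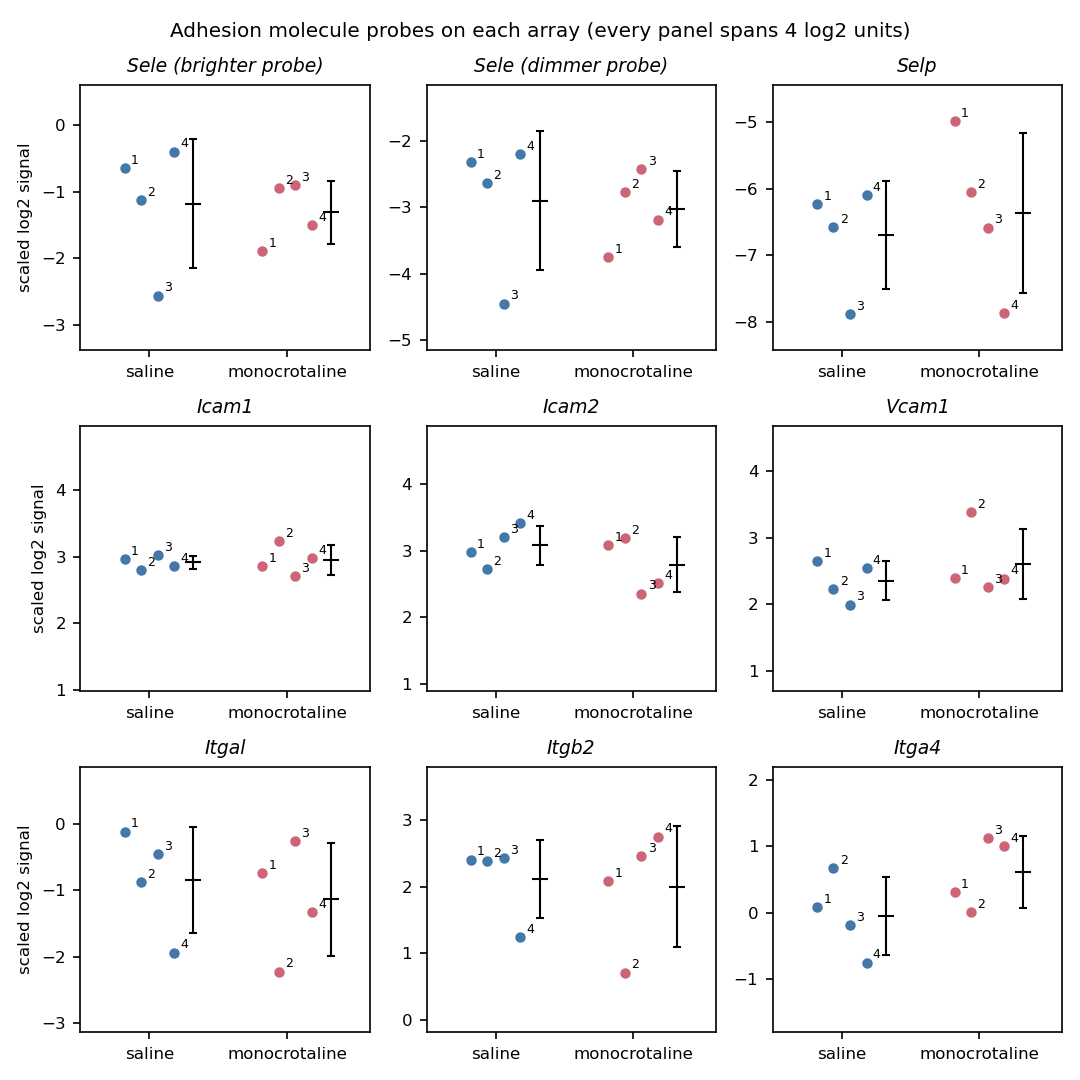
Scaled log2 signal (vertical axis) of the 9 member probes on the 4 saline and 4 monocrotaline arrays. Points carry the replicate number and bars give the mean with 1 SD (n = 4). The groups overlap in every panel, and Icam1 shows the tightest points.

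Icam1, the ligand of LFA-1 that inflamed endothelium raises, was the steadiest member. On saline replicates 1 to 4 it stood at 2.97, 2.81, 3.03 and 2.86, and on monocrotaline replicates 1 to 4 at 2.87, 3.24, 2.71 and 2.98. The 4 saline samples thus lay within a 1.17-fold range and the treated samples spread around the same level, replicate 2 highest. Its log2 fold change was 0.03 ± 0.14 (SE, n = 4 per group, limma adjusted p = 0.947), and its 95% interval ran from a ratio of 0.816 to 1.28.

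Vcam1, the ligand of VLA-4, had 1 high array. Saline replicates 1 to 4 read 2.64, 2.23, 1.99 and 2.54. Monocrotaline replicates 1 to 4 read 2.39, 3.38, 2.25 and 2.38, so replicate 2 stood well above the other 3, which lay inside the saline range. Between groups the log2 fold change was 0.25 ± 0.27 (limma adjusted p = 0.732), with a ratio between 0.772 and 1.83 by the 95% interval, and without monocrotaline replicate 2 it was -0.011. That same array had the lowest Itgb2 and Itgal of the 8, and the highest Icam1. Markers of other lung cells also varied. The summed signal of 9 alveolar epithelial markers was 45.3 to 206 on saline and 95.2 to 154 on monocrotaline arrays. That of 14 stromal markers was 12.3 to 88.6 and 41.8 to 91.2, all 14 with positive log2 fold changes (median 0.92, 0 called). The part of such cells in the Icam1 and Vcam1 signals was not tested.

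Icam2, the constitutive ligand of LFA-1, read 2.97, 2.73, 3.20 and 3.41 on saline replicates 1 to 4. It read 3.08, 3.19, 2.35 and 2.52 on monocrotaline replicates 1 to 4. Replicates 3 and 4 of the treated group lay below every saline array, and replicates 1 and 2 lay among them. The log2 fold change was -0.29 ± 0.24 (limma adjusted p = 0.623), a ratio between 0.562 and 1.19 by the 95% interval. Endothelial markers were low on the same arrays. The 15 measured markers, with Pecam1 (CD31 itself) and Cdh5 (VE-cadherin) well above background on all 8 arrays, all had negative log2 fold changes with a median of -0.50 and 0 called. Their mean, taken relative to the saline average, was -0.77 and -0.80 on monocrotaline replicates 3 and 4 but -0.37 and -0.066 on replicates 1 and 2. Its range was -0.24 to 0.38 on the saline arrays, and the summed signal of the list (linear, in units of each array's 75th percentile) spanned 248 to 353 there and 158 to 274 after monocrotaline. Fewer endothelial cells and less RNA per cell cannot be told apart in such bulk samples. Set against Pecam1 on the same array, Icam2 was level in both groups, at -2.31 ± 0.22 for saline and -2.30 ± 0.16 for monocrotaline (log2 difference of the probes, SD, n = 4).

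Against Pecam1 the other ligands also overlapped between groups. The shift of the Icam1-minus-Pecam1 difference was 0.34 and that of Vcam1 0.55, while Sele gave 0.18 and Selp 0.63. Such a difference to Pecam1 lay apart and higher for 7.5% of all probes and apart and lower for 0.443%, and Pecam1 itself had a log2 fold change of -0.30 ± 0.19 (limma adjusted p = 0.510).

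Sele was the most variable of the endothelial ligands that were well above background on all 8 arrays. Its brighter probe read -0.64, -1.13, -2.56 and -0.40 on saline replicates 1 to 4 and -1.89, -0.95, -0.90 and -1.51 on monocrotaline replicates 1 to 4. The saline samples alone covered a 4.49-fold range, with replicate 3 far below the others, and the treated samples lay inside it. The dimmer probe repeated this order of saline samples, at -2.33, -2.64, -4.45 and -2.21. On monocrotaline replicates 1 to 4 it read -3.75, -2.77, -2.42 and -3.19. The gap between both probes stayed at 1.51 to 1.89 log2 units over the 8 arrays, so both probes showed the same spread between samples. Their log2 fold changes were -0.13 ± 0.47 and -0.13 ± 0.51 (limma adjusted p = 0.933 and 0.940), and the brighter probe's interval runs from a ratio of 0.436 to 1.92.

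Selp was close to the limit of detection. It was well above background on 1 of 4 saline and 3 of 4 monocrotaline arrays. It read -6.23, -6.58, -7.89 and -6.10 on saline replicates 1 to 4 and -4.98, -6.05, -6.59 and -7.87 on monocrotaline replicates 1 to 4. The highest and the second lowest of the 8 values thus both came from treated samples. Its log2 fold change was 0.33 ± 0.62 (limma adjusted p = 0.855), and it rests on signals near background. Platelets, which store P-selectin, varied on the same arrays: the summed signal of 7 measured platelet markers was 15.9 on monocrotaline replicate 1, where Selp was highest, against 2.28 to 6.35 on the other treated arrays and 2.25 to 4.74 on saline arrays. All 7 had positive log2 fold changes with 0 called and a median of 0.25. Gp1ba, part of the von Willebrand factor receptor, was measured but not well above background on any array. The part of platelets in the Selp signal was not tested.

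**Figure D2:**
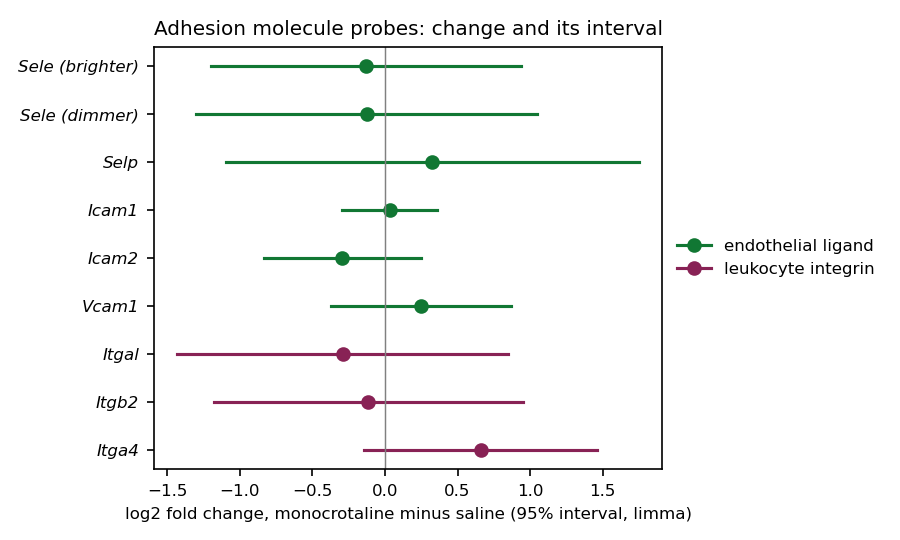
Log2 fold change of monocrotaline over saline (horizontal axis) for each member probe, as points with 95% intervals from limma (n = 4 per group). All 9 intervals cross 0, with Icam1 the narrowest and Selp the widest, and Itga4 has the largest estimate, 0.66.

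The leukocyte integrins gave clear signals in these CD31-selected preparations and did not pass the test either. Itgb2, the beta chain shared by LFA-1 and Mac-1, read 2.41, 2.39, 2.44 and 1.24 on saline replicates 1 to 4 and 2.08, 0.71, 2.46 and 2.76 on monocrotaline replicates 1 to 4. Saline replicate 4 and monocrotaline replicate 2 stood apart as low, and the other 6 arrays lay close together across both groups. The log2 fold change was -0.12 ± 0.47 (limma adjusted p = 0.940), and without monocrotaline replicate 2 it was 0.32.

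Itgal, the alpha chain that makes LFA-1, was low on the same arrays. It read -0.12, -0.88, -0.45 and -1.94 on saline replicates 1 to 4 and -0.74, -2.22, -0.26 and -1.33 on monocrotaline replicates 1 to 4. The lowest value of each group again came from saline replicate 4 and monocrotaline replicate 2. Its log2 fold change was -0.29 ± 0.50 (limma adjusted p = 0.838), and 0.070 without monocrotaline replicate 2.

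General leukocyte genes followed that pattern. The summed signal of 11 measured pan-leukocyte markers, among them Ptprc (CD45), Coro1a and Laptm5, was 166 on saline replicate 4 and 178 on monocrotaline replicate 2. On the other saline arrays it was 247 to 397, and on the other monocrotaline arrays 261 to 387. The list had 6 positive and 5 negative log2 fold changes, 0 called and a median of 0.26, and Ptprc was at 0.31 ± 0.39 (limma adjusted p = 0.771). The mean of 13 monocyte and macrophage markers, relative to the saline average, was likewise lowest on those arrays, at -0.55 and -0.73. The part of leukocyte content in the integrin signals was not tested.

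**Figure D3:**
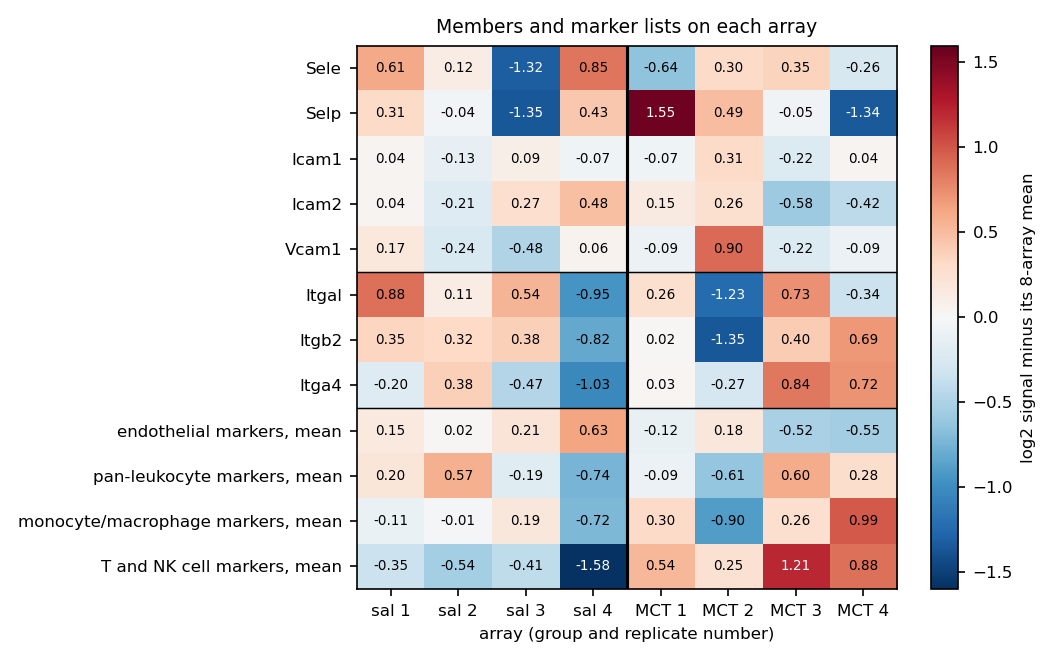
Log2 signal minus its own mean over the 8 arrays (colour and printed number) for each member gene, by its brighter probe, and for the mean of 4 marker lists. Columns are saline (sal) and monocrotaline (MCT) replicates 1 to 4. Itgal, Itgb2 and the pan-leukocyte and macrophage lists are low on sal 4 and MCT 2, while T and NK cell markers are higher in all MCT columns than in any sal column.

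Itga4, the alpha chain of VLA-4, had the largest estimate of the set. It read 0.08, 0.67, -0.18 and -0.75 on saline replicates 1 to 4 and 0.31, 0.01, 1.13 and 1.00 on monocrotaline replicates 1 to 4. Treated replicates 3 and 4 lay above every saline array, and replicates 1 and 2 lay among them. The log2 fold change was 0.66 ± 0.35 (limma adjusted p = 0.436), a ratio between 0.907 and 2.75 by the 95% interval. It was positive under all 21 alternatives, from 0.43 to 0.90, and was called under 0 of them.

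Markers of T and NK cells stood higher on the treated arrays, beside Itga4. All 18 measured markers had positive log2 fold changes with a median of 1.59, against -0.024 over all probes. Of the 18, 3 were called higher (Cd247, Cd8b and Zap70), against 1.36% of all probes. Leaving out saline replicate 4 gave 3 calls, leaving out monocrotaline replicate 2 gave 5, and leaving out any of the other arrays gave 0. It was 0 with the replicate block and 8 with normexp and quantile normalization, and all 18 stayed positive in each of these. Their summed signal was 4.67 to 11.3 on saline arrays and 20.0 to 36.2 on monocrotaline arrays. It was largest on monocrotaline replicates 3 and 4 (36.2 and 34.4), the arrays where Itga4 was highest. Other leukocyte lists varied beside Itga4 as well. On saline replicate 2, its highest saline array, the mean relative to the saline average was 0.80 for B and plasma cell markers. It was 0.61 there for pan-leukocyte and 0.18 for T and NK cell markers. Of 9 B and plasma cell markers 8 had positive and 1 a negative log2 fold change, with 0 called and a median of 0.45. Beside the brighter Ptprc probe on the same array, Itga4 was at -3.25 ± 0.17 for saline and -2.90 ± 0.20 for monocrotaline (log2 difference of the probes, SD, n = 4). There the groups did not overlap. Among 16 such differences, of 8 genes to that probe and to Pecam1, this was the only 1 that separated the groups. When set against that probe 0.688% of all probes lay apart and higher and 0.684% apart and lower. The separation depended on the Ptprc probe. A dimmer one, well above background on every array, read 0.91, 0.96, 0.21 and -0.59 on saline replicates 1 to 4. It read 0.24, 0.39, 1.61 and 0.77 on monocrotaline replicates 1 to 4, and Itga4 set against it overlapped between groups. The part of T cells, B cells or other leukocytes in the Itga4 signal was not tested.

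The 2 sides of the contact were also set side by side. By 1 probe per gene, the median log2 fold change was 0.032 over the 5 endothelial genes (range -0.29 to 0.33) and -0.12 over the 3 leukocyte genes (range -0.29 to 0.66). Within a group, the per-array median level of the endothelial genes varied with an SD of 0.37 and that of the leukocyte genes with 0.56. These SDs are of signal levels, set by each array's middle-ranked gene (Itga4 for the leukocyte genes). They do not measure the spread of the median fold changes. The order of the median fold changes turned without monocrotaline replicate 2 (-0.066 for endothelial and 0.32 for leukocyte genes) and without saline replicate 3 (-0.069 and -0.0097). Over the 8 arrays, described without a test, Itgal and Itgb2 ran together (Pearson r = 0.79), Vcam1 ran opposite to Itgb2 (r = -0.79) and Icam2 opposite to Itga4 (r = -0.96). All of these share the array's scaling and its mix of cells.

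The genes most like each member over the 8 arrays, by Pearson r among probes with a symbol, are given as a description. They are the highest of very many values, each over only 8 arrays, so such r can arise between unrelated genes. For Selp they also rest on signals near background. For Itgb2 they were Parvg (r = 0.993), which encodes an actin-binding parvin of blood cells, Lipa (0.988), the lysosomal acid lipase, and Myo1f (0.987), a leukocyte myosin. For Itga4 they were Evi2a (0.988), Ccnc (0.987) and Ptpn7 (0.981), a phosphatase of lymphoid cells. For Itgal they were Mxd1 (0.969), Plaur (0.951), the urokinase receptor, and Klrb1b (0.941), an NK cell receptor. For Icam2 they were Rarg (0.997), Guk1 (0.990) and Arl2 (0.988). For Icam1 they were Grb14 (0.970), Cd276 (0.945) and Cyp26a1 (0.918), and for Vcam1 Snx11 (0.949), Ufd1 (0.927) and Htr2b (0.919). For Sele they were Taf5l1 (0.934), Taf2 (0.920) and Ebf3 (0.918), and for Selp Prim2 (0.940), Fam131b (0.937) and Csrnp2 (0.933).

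The rest of the adhesion cascade was measured through 6 lists of genes other than the members. Of 19 other endothelial adhesion and passage genes 0 were called, against 1.42% of all probes, with a median of -0.25. The largest log2 fold changes there were those of Glycam1, a sugar-bearing mucin-like protein (log2 fold change -2.15 ± 0.93, limma adjusted p = 0.354), and Clec14a, a lectin-like endothelial protein (-0.92 ± 0.24, limma adjusted p = 0.138). Glycam1 ranged from -1.62 to 1.67 within the saline group, so its size rests on widely scattered arrays.

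The list of other integrins and leukocyte adhesion genes gave 1 called rise. Of 15 measured, 1 was called higher, against 1.36% of all probes, and 0 lower, with a median of 0.087. The groups lay apart and higher for 3 of the 15 (4.66% of all probes) and apart and lower for 0 (3.87%). At an unadjusted limma p under 0.05, 5 were higher and 3 lower, against 6.72% and 7.08% of all probes. The called gene was Cd96, a receptor of T and NK cells, which read -6.42, -6.34, -5.81 and -7.06 on saline replicates 1 to 4. It read -4.83, -5.09, -4.20 and -4.76 on monocrotaline replicates 1 to 4, so the groups lay apart. The log2 fold change was 1.69 ± 0.29 (limma adjusted p = 0.0319), but only 1 saline array was well above background. After normexp correction with the same scaling the log2 fold change was 0.39 and not called (limma adjusted p = 0.363). With normexp and quantile normalization it was 0.56 and called (limma adjusted p = 0.0471). Of the partners of the members, Itgb1, the beta chain of VLA-4, was at 0.087 ± 0.18 and Itgb7, the other beta chain that pairs with Itga4, at 1.15 ± 0.41, and these did not pass (limma adjusted p = 0.871 and 0.273).

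Genes that regulate integrin activation, some of them negatively, also gave 1 called rise. Of 20 measured, 1 was called higher, against 1.36% of all probes, and 0 lower, with a median of 0.060. Skap1, an adaptor that couples the T cell receptor to LFA-1, read -4.42, -4.08, -3.89 and -5.20 on saline replicates 1 to 4 and -2.65, -2.93, -2.23 and -2.17 on monocrotaline replicates 1 to 4. Every treated sample lay above every saline sample, and the log2 fold change was 1.90 ± 0.30 (limma adjusted p = 0.0261). Its size depended on the background correction. It was 1.19 after normexp correction with the same scaling and 1.24 with normexp and quantile normalization, and Skap1 was called in both. Markers of T cells moved beside Skap1, with Cd247 at 2.11 and Cd3g, which did not pass, at 1.90, and like Skap1 both were lowest on saline replicate 4. The part of T cells in the Skap1 signal was not tested. Tln1 and Fermt3, the talin and kindlin that open leukocyte integrins, were at -0.042 ± 0.11 and 0.20 ± 0.27.

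The inflammatory genes that TNF or IL-1 induce in endothelium, as they do Sele, Vcam1 and Icam1, gave 1 call in each direction among 18 measured. Among all probes 1.36% were called higher and 0.0647% lower. The median of this list was -0.17. Ccl2, the monocyte chemoattractant, read 1.14, 0.93, 0.65 and 1.39 on saline replicates 1 to 4 and 1.93, 1.97, 1.90 and 1.96 on monocrotaline replicates 1 to 4. It rose by 0.91 ± 0.16 (limma adjusted p = 0.0397), with the treated samples nearly equal. Nfkbia, the NF-kB inhibitor that NF-kB itself induces, read 4.55, 4.58, 4.71 and 5.00 on saline replicates 1 to 4 and 3.59, 3.61, 3.98 and 3.99 on monocrotaline replicates 1 to 4. Its log2 fold change was -0.92 ± 0.16 (limma adjusted p = 0.0351). The other lists held 0 calls. Of 18 genes for making selectin ligands the median was 0.011, with Fut7, the fucosyltransferase of leukocyte selectin ligands, at 0.60 ± 0.38 and St3gal4 at -0.47 ± 0.20. Of 15 Weibel-Palade body genes the median was -0.16, with Edn1, endothelin-1, at -0.39 ± 0.25 and Stx3, a membrane fusion protein, at -0.38 ± 0.28.

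These 4 calls depended on which arrays were included. Cd96 kept its call without saline replicate 3 or monocrotaline replicate 2 and lost it without any of the other 6 arrays (adjusted p = 0.0585 to 0.104). Skap1 kept it without saline replicate 3 or 4 or monocrotaline replicate 2, and adjusted p was 0.0596 to 0.0967 without the others. Ccl2 kept it only without saline replicate 4 (0.0631 to 0.120 otherwise), and Nfkbia only without monocrotaline replicate 3 (0.0600 to 0.106 otherwise). The log2 fold changes kept their sign with 1 array left out. They ran from 0.79 to 1.03 for Ccl2, 1.47 to 1.89 for Cd96, -0.98 to -0.82 for Nfkbia and 1.63 to 2.07 for Skap1. With a block for replicate number none of the 4 was called, at limma adjusted p = 0.157 for Ccl2, 0.0693 for Cd96, 0.113 for Nfkbia and 0.124 for Skap1. The block leaves the fold changes as they were. Without the treated replicates 1 and 3, 0 of the 4 were called on 6 arrays, and the log2 fold changes were 0.94 for Ccl2, 1.48 for Cd96, -0.91 for Nfkbia and 1.84 for Skap1.

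**Figure D4:**
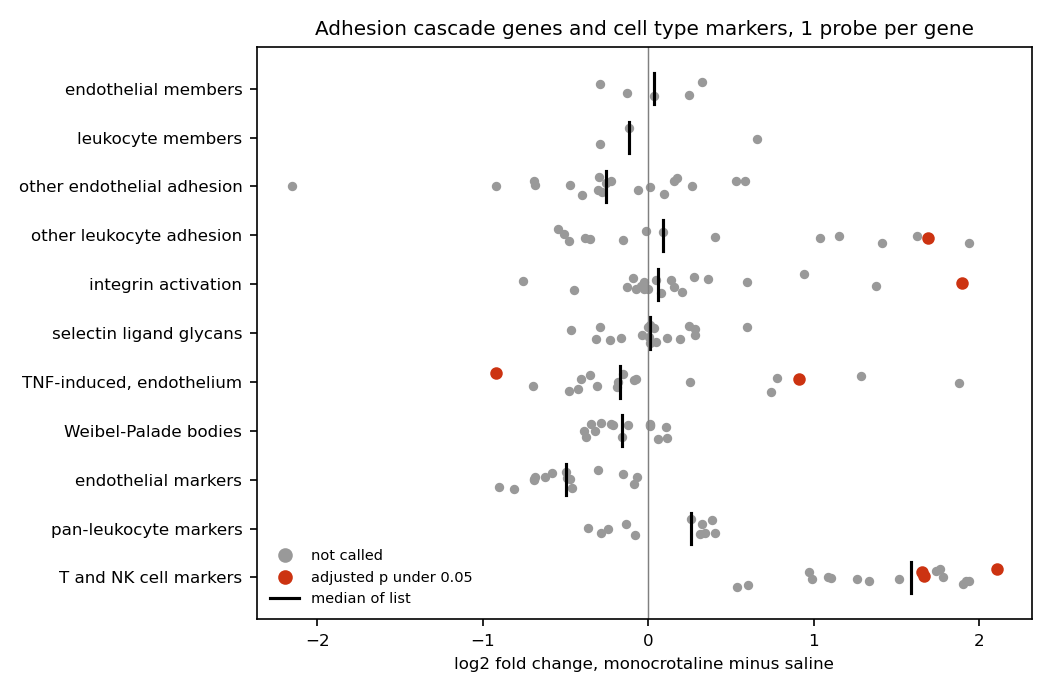
Log2 fold change of monocrotaline over saline (horizontal axis) for each gene kept, by its brightest probe, in the member groups, 6 lists of the adhesion cascade and 3 lists of cell type markers. Black bars are list medians and red points passed limma's test. The members sit around 0, endothelial markers lie below 0 and T and NK cell markers above it, and genes in 2 lists appear in both.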

How the data were processed

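Total RNA (10 ng) was amplified and marked with Cy3, per the labels' protocols. Per the file headers, the slide held all 8 arrays and the scans were quantified by Agilent Feature Extraction 10.7.3.1. The deposited processed signal is an intensity from which the scanner software had removed background and spatial trend, and the deposited flag columns hold other values, 0 or 1 per spot. In the deposited value table, log2 was applied to log2 values: undone once, it matches processed signals that were quantile-normalized and logged (median absolute difference 9.89e-10), and it served as an alternative. Limma 3.6.9 is listed, with no role given, per the submitters' processing notes.

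Control spots (4259) and spots flagged as outliers were left out, and the other spots of a probe were averaged. This dropped 17 of 30367 probes. Log2 signals were set to a 75th percentile of 0 per array. Probes well above background on at least 4 of 8 arrays were kept (21652). A probe counted as such where at least 50 percent of its unflagged spots did. Probes were named through RefSeq accessions: 18006 matched 15159 symbols and 12361 did not. Monocrotaline was compared with saline, 4 arrays each, over all probes in R 4.3.3 with limma 3.58.1 (two-sided, Benjamini-Hochberg), tested on simulated data. The labels do not say whether samples of a group came from separate animals, so p-values measure the spread between these samples. Per array, 70.8% to 77.7% of spots stood well above background. Replicate numbers are shared by both groups, but deviations of same-numbered arrays from their group means did not correlate positively (r = -0.33 to -0.014), so they were not treated as pairs. Same-numbered arrays also shared a slide column, so the block for replicate number is a block for slide column as well.

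All member probes are described. From each further list the called genes are named or, failing any, the 2 with the largest change, and for each member the 3 genes with the highest Pearson r. Other genes (partners of the members, Tln1, Fermt3, Gp1ba and Cd3g) were chosen after their values were seen. Members and lists were chosen with earlier results of these data known. The alternatives were normexp correction (offset 50), quantile and median scaling, the deposited table, other filters, 1 value per gene, other variance models, weighting of arrays, replicate number as a block, and each array left out in turn. Leaving out both monocrotaline arrays with high airway cell genes (replicates 1 and 3) was added after seeing the data. A gene of the leukocyte adhesion list is not reported here by name.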

Additional observations from a re-analysis of the deposited data

Results flagged for a closer look

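Among 18 sets of 4 arrays (9 probes in 2 groups), 2 had an array whose gap to its nearest neighbour was large against the range of the set, where chance marks about 1 set in 20. Vcam1 read 3.38 on monocrotaline replicate 2, and the other treated arrays lay between 2.25 and 2.39. Itgb2 read 1.24 on saline replicate 4, and the other saline arrays lay between 2.39 and 2.44.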

How the results depend on the processing

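No member probe was called under any of the 21 alternatives, and the lowest adjusted p among 186 values was 0.285. In 170 of those values the log2 fold change kept its sign and in 16 it did not. Selp turned to -0.13 with normexp correction and 75th percentile scaling and to -0.26 without treated replicates 1 and 3, where the airway cell list averaged 3.01 and 3.18 above saline. Selp has no value when probes must be well above background on all 8 arrays, nor has the dimmer Sele probe with 1 value per gene. Icam1 turned to -0.0090 with median scaling. With 1 array left out, the log2 fold change ran from -0.59 to 0.13 for the brighter and -0.64 to 0.11 for the dimmer Sele probe, -0.14 to 0.83 for Selp, -0.066 to 0.11 for Icam1, -0.011 to 0.36 for Vcam1, -0.66 to 0.070 for Itgal and -0.41 to 0.32 for Itgb2. The sign turned for Sele without saline replicate 1 or 4 or monocrotaline replicate 1, for Selp without saline replicate 3 or monocrotaline replicate 1, and for Icam1 without saline replicate 2 or monocrotaline replicate 2. It turned for Vcam1, Itgal and Itgb2 without monocrotaline replicate 2. Over the alternatives the median log2 fold change ran from -0.090 to 0.13 (endothelial members) and from -0.41 to 0.32 (leukocyte members). The leukocyte median was positive only without monocrotaline replicate 2. The order of the medians turned without monocrotaline replicate 2 or saline replicate 3.

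Over all probes 294 were called higher and 14 lower. With 1 array left out these counts ran from 14 (without saline replicate 1) to 316 and from 0 to 108 (without monocrotaline replicate 2). Without the 2 airway-high arrays they were 62 and 1, and with the replicate block they were 0 and 0. The lower calls were 23 and 24 with normexp and 75th percentile scaling or quantile normalization, 9 without a filter and 59 with array weights. The 3 higher and 1 lower calls of the adhesion lists became 0 and 0 with the replicate block, where the fold changes are the same, or without the airway-high arrays, where 6 arrays remain and log2 fold changes were 0.94 (Ccl2), 1.48 (Cd96), -0.91 (Nfkbia) and 1.84 (Skap1). With 1 array left out the counts over these lists ran from 0 to 2 and from 0 to 1. The genes counted were not always those named. Without monocrotaline replicate 2 the 1 lower call was not Nfkbia (limma adjusted p = 0.0600), and quantile normalization gave 4 higher calls. The lower call became 0 with quantile normalization, median scaling, the deposited table or no filter. The cause of these shifts was not tested. No array correlated best with its own number. Selp, well above background on 4 of 8 arrays, is the member that signal over background limits most, and the 95% intervals of the ratio for Sele, Selp, Itgal and Itgb2 start at 0.370 to 0.467 and end at 1.80 to 3.37.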
